A study of Mus musculus with 7 samples.

Results

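A set of 10 genes that mark macrophages and other leukocytes, *Ptprc*, *Cd68*, *Csf1r*, *Adgre1*, *Mrc1*, *C1qa*, *C1qb*, *C1qc*, *Lyz2* and *Tyrobp*, was followed through muscle fibers of WT and dyW mouse fetuses. They are the rows of the deposited table of normalized counts that carry these symbols, and all 10 were found among its 31531 genes. All 10 also passed the filter on low values, a mean normalized count of at least 5 over the libraries, which 25791 genes passed. RNA was sequenced from fibers of the epaxial (dorsal) muscles at embryonic day 17.5, in 4 libraries labelled wt (WT1 to WT4) and 3 labelled dyW/dyW (dyW1 to dyW3), with no treatment. The dyW allele disrupts *Lama2*, which encodes the α2 chain of laminin, and both genotypes came from crosses of heterozygous dyW C57BL/6 mice, a model of LAMA2-congenital muscular dystrophy. The muscles were digested with dispase and collagenase and the fibers were taken from a strainer, with no step described that sorts cells by type. The libraries are described as independent samples, the number of fetuses behind each is not given in the sources used here, and the *P*-values measure only the spread between these libraries.

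Macrophages settle in the muscles of the fetus, where they lie between the fibers and clear dying cells and debris. They depend on signals through the receptor encoded by *Csf1r*, and they carry scavenger receptors, immune receptors that signal through small adaptor proteins, and large amounts of lysosomal enzymes. They are also a main source of C1q, the molecule that starts the classical complement cascade. Muscle fibers themselves are not known to express the genes of this set.

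The libraries differed in ways that touch every value below. Within each library, the normalized counts were whole multiples of the value of 1 read, which was 2.05 to 5.33 normalized counts in the WT libraries and 0.0974 to 0.488 in the libraries labelled dyW. The reads counted on genes, recovered with these steps, ranged from 470804 (WT1) to 2220813 (WT3) in WT, and from 3663905 (dyW3) to 18297106 (dyW2) in the other group. A count of 0 allows up to 3 reads, or 6.15 to 16.0 normalized counts in a WT library and 0.292 to 1.47 in a library labelled dyW. The PCR products carried no molecular identifiers, so reads are not independent molecules, and these limits cover counting error only. The targeted gene, *Lama2*, had normalized counts of 90.6 to 111 in WT, 4.29 in dyW1, 6.07 in dyW2 and 139.7 in the third library of that group. The WT values were only 0.925 to 1.62 times the per-length level of receptor genes for odors and pheromones in the same library (described further on), which limits this check, whereas the third library was at 14.7 times. The *Lama2* level of this library was thus above every WT library, unlike those of dyW1 and dyW2, although its label is dyW. Why was not tested, and the library is called the library labelled dyW3 throughout. Markers of the labelled cell type were nearly absent from 1 library: the summed normalized count of 14 myofiber genes was 69.9 in dyW1, where 7 of the 14 had a read, against 2804 to 80165 in the other 6 libraries.

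The libraries labelled dyW were unlike one another: dyW1 and dyW2 each held some of the 10 genes and the library labelled dyW3 held all of them, whereas the WT libraries held low levels of nearly all. In WT, 8 of the 10 genes had at least 1 read in WT1, and 10 of 10 had one in WT2, WT3 and WT4. Only 3 of 10 had a read in dyW1 (*Cd68*, *Csf1r* and *Tyrobp*), and 7 of 10 had one in dyW2. All 10 had a read in the library labelled dyW3, although *Lyz2* had a single read there. The same difference ran through the whole table: 90.3% to 98.4% of all tested genes had a read in a WT library, against 59.6%, 50.7% and 65.9% in dyW1, dyW2 and the library labelled dyW3. The most abundant of the 10 by reads differed among the 3 libraries: *Tyrobp* gave 46.5% of their summed reads in dyW1, *Lyz2* gave 70.8% in dyW2, and *Mrc1* gave 47.3% in the library labelled dyW3. Between the groups, no gene of the 10 had all of its values on one side, and none passed the thresholds of the group comparison. Fewer macrophages in a sample and less of a transcript in each macrophage cannot be told apart in RNA from bulk fibers.

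**Figure D1:**
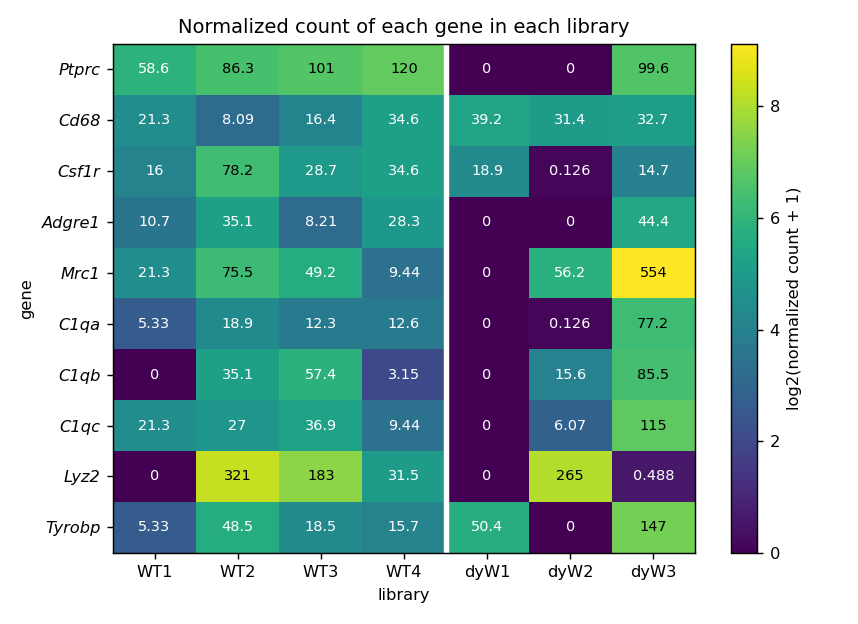
Normalized count of each of the 10 genes (rows) in each of the 7 libraries (columns), with the value printed in each cell and the color giving log2(normalized count + 1). The 4 WT columns are filled at low values almost throughout, whereas dyW1 has 7 cells at 0, dyW2 has 3 cells at 0 and 2 more with a single read, and the library labelled dyW3 has the highest value of 6 of the 10 genes.

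*Ptprc* encodes CD45, the membrane phosphatase carried by nearly all nucleated blood cells and the broadest leukocyte marker among the 10. Its normalized counts were 58.6, 86.3, 101 and 119.6 in WT1 to WT4, and 0, 0 and 99.6 in dyW1, dyW2 and the library labelled dyW3. Every WT library held it, from 11 to 49 reads, dyW1 and dyW2 held no read of it, and the third library lay inside the WT range, so the groups overlapped. WT averaged 91.3 ± 25.7 normalized counts (SD, n = 4), and the libraries labelled dyW averaged 33.2 ± 57.5 (SD, n = 3; exact two-sided permutation test, *P* = 0.171, where 0.0571 is the smallest value that the 35 splits of 7 libraries allow). Its log2 fold change, dyW minus WT and on log2(normalized count + 1) here and throughout, was −4.26 (SE 1.53, limma with Benjamini-Hochberg adjustment, adjusted *P* = 0.0627), the most negative of the 10 genes. GENCODE places *Ptprc* on the minus strand of chromosome 1 (137990599 to 138103446 of GRCm39, the build of all gene positions here), overlapped on the same strand by *A130071D04Rik*. Counts of genes that overlap on the same strand are uncertain, as are those of genes that overlap on opposite strands, since the strand setting of the counting is not given in the sources used here.

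*Csf1r* encodes the receptor through which the growth factors CSF1 and IL-34 keep macrophages alive and dividing. It had normalized counts of 16.0, 78.2, 28.7 and 34.6 in WT1 to WT4, and of 18.9, 0.126 and 14.7 in dyW1, dyW2 and the library labelled dyW3. The WT1 value rests on 3 reads and that of dyW2 on 1 read, and WT1 lies between the values of the libraries labelled dyW. Means of 39.4 ± 27.0 (SD, n = 4) and 11.2 ± 9.85 normalized counts (SD, n = 3) gave a log2 fold change of −2.29 (SE 1.11, limma adjusted *P* = 0.145; exact two-sided permutation test, *P* = 0.114). *Csf1r* lies on chromosome 18 from 61229714 to 61266535 on the plus strand and overlaps *Hmgxb3* on the minus strand and *Mir6983*. Of its 2 ligand genes, *Csf1* had normalized counts of 10.3 to 59.8 in WT, and of 108, 23.1 and 1.95 in the libraries labelled dyW in order of number. Its highest value was thus in the library that also had the highest *Csf1r* value of its group. The other ligand gene, *Il34*, had 4.10 to 21.6 normalized counts in WT and at most 0.488 in any library labelled dyW, from 3 reads in all (limma adjusted *P* = 0.0140), which passed the looser of the 2 thresholds given below but not the stricter.

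*Tyrobp* encodes DAP12, the adaptor that passes on signals from TREM2 and other activating receptors of myeloid and natural killer cells. Its normalized counts were 5.33, 48.5, 18.5 and 15.7 in WT1 to WT4, and 50.4, 0 and 146.5 in dyW1, dyW2 and the library labelled dyW3. The 2 highest values and the only 0 were all in the libraries labelled dyW. These gave means of 22.0 ± 18.6 (SD, n = 4) and 65.6 ± 74.4 normalized counts (SD, n = 3), and a log2 fold change of 0.14 (SE 1.60, limma adjusted *P* = 0.955). In dyW1 it was the leading gene of the set, with 517 reads, although *Ptprc*, *Adgre1*, *Mrc1*, the C1q genes and *Lyz2* had no read there. *Tyrobp* lies on chromosome 7 from 30113170 to 30117010 on the plus strand, with no overlapping gene in the annotation. Among 13 tested genes for partners and downstream signalling of this adaptor, 0 were called by limma (9 by unadjusted *P*-values under 0.05) and 2 were called by voom, and 3 were lower at an adjusted *P*-value under 0.05, which is 23.1% beside 29.6% of all tested genes. Over all 25791 genes, limma called 18.7% lower, voom called 6079 lower, and 11433 passed 0.05 by unadjusted limma *P*-values. The 3 were *Siglech* (log2 fold change of −3.22, limma adjusted *P* = 0.0190), which encodes a receptor of plasmacytoid dendritic cells and microglia that pairs with DAP12, *Syk* (−3.51, 0.0212), which encodes the kinase recruited by the adaptor, and *Inpp5d* (−3.29, 0.0189), which encodes the phosphatase SHIP1. *Trem2* itself had 14.4 to 21.3 normalized counts in WT, and 0, 3.41 and 21.5 in the libraries labelled dyW. *Lyn*, of the same list, went the other way, with 9.44 to 48.5 in WT, and 55.4, 63.5 and 126 in the libraries labelled dyW. Its log2 fold change was 1.56 (limma adjusted *P* = 0.134). *Klrk1* had 8.21 to 72.4 in WT, and 0, 0 and 196 in the libraries labelled dyW.

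*Cd68* encodes a lysosomal membrane protein that is abundant in phagocytes. It stood apart from the other 9 genes because every library labelled dyW held it well above the limit of 3 reads: its normalized counts were 39.2, 31.4 and 32.7 in dyW1, dyW2 and the library labelled dyW3, from 402, 248 and 67 reads. In WT1 to WT4 they were 21.3, 8.09, 16.4 and 34.6, from only 3 to 11 reads. WT4 lay within the range of the libraries labelled dyW and the other 3 WT libraries lay below it. WT averaged 20.1 ± 11.1 normalized counts (SD, n = 4) against 34.4 ± 4.17 (SD, n = 3), and the log2 fold change of 0.90 (SE 0.694) was the most positive of the 10 but did not pass the test (limma adjusted *P* = 0.346; exact two-sided permutation test, *P* = 0.171). *Cd68* lies on chromosome 11 from 69555037 to 69557067 on the minus strand, opposite *Gm73992*.

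*Adgre1* encodes F4/80, the surface receptor used most widely to identify mouse macrophages. Normalized counts of 10.7, 35.1, 8.21 and 28.3 were found in WT1 to WT4, and 0, 0 and 44.4 in dyW1, dyW2 and the library labelled dyW3. As for *Ptprc*, dyW1 and dyW2 held no read while the library labelled dyW3 held 91 reads, here above every WT library. The log2 fold change was −2.36 (SE 1.39, limma adjusted *P* = 0.222). *Mrc1* encodes CD206, the mannose receptor of tissue-resident macrophages, which takes up glycoproteins. It had normalized counts of 21.3, 75.5, 49.2 and 9.44 in WT1 to WT4, and of 0, 56.2 and 553.8 in the libraries labelled dyW in order of number. The third of these was the highest normalized count of any of the 10 genes in any library, whereas dyW2 fell within the WT range. Means of 38.9 ± 29.6 (SD, n = 4) and 203 ± 305 normalized counts (SD, n = 3) differed by less than the spread within the second group, with a log2 fold change of 0.04 (SE 1.86, limma adjusted *P* = 0.989). *Adgre1* lies on chromosome 17 from 57665573 to 57790527 on the plus strand with no overlapping gene, and *Mrc1* on chromosome 2 from 14234151 to 14336926 on the plus strand, where it holds *Mir511*.

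*C1qa*, *C1qb* and *C1qc* encode the 3 chains of C1q, and the protein is assembled from all of them. The 3 genes lie side by side on the minus strand of chromosome 4 of GRCm39, *C1qb* from 136606009 to 136613511, *C1qc* from 136616466 to 136620376 and *C1qa* from 136623223 to 136626161, and *Gm69251* overlaps the first 2 on the opposite strand. *C1qa* had normalized counts of 5.33, 18.9, 12.3 and 12.6 in WT1 to WT4, and of 0, 0.126 and 77.2 in dyW1, dyW2 and the library labelled dyW3. Those of *C1qb* were 0, 35.1, 57.4 and 3.15 in WT, and 0, 15.6 and 85.5 in the libraries labelled dyW. *C1qc* had 21.3, 27.0, 36.9 and 9.44 in WT, and 0, 6.07 and 114.8 in the libraries labelled dyW. All 3 genes were thus without a read in dyW1 and highest in the library labelled dyW3, where they had 158, 175 and 235 reads. In dyW2 they parted: *C1qb* had 123 reads and *C1qc* had 48 reads, whereas *C1qa* had 1 read. Across the 7 libraries, Pearson's r of log2(normalized count + 1) was 0.88 between *C1qa* and *C1qc*, 0.72 between *C1qb* and *C1qc*, and 0.62 between *C1qa* and *C1qb*. These are descriptions over libraries that also differ in depth. The log2 fold changes were −1.47 (SE 1.48) for *C1qa*, 0.22 (SE 1.81) for *C1qb* and −1.25 (SE 1.44) for *C1qc*, with limma adjusted *P*-values between 0.475 and 0.937.

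*Lyz2* encodes lysozyme M, the antibacterial enzyme of monocytes, macrophages and granulocytes. Its normalized counts were 0, 320.9, 182.6 and 31.5 in WT1 to WT4, and 0, 265 and 0.488 in dyW1, dyW2 and the library labelled dyW3. It was the only gene of the 10 that was nearly absent from the library labelled dyW3, with 1 read (95% exact Poisson interval of 0.0124 to 2.72 normalized counts), while dyW2 held 2095 reads of it. Values were as far apart within WT as within the other group, with means of 134 ± 148 (SD, n = 4) and 88.5 ± 153 normalized counts (SD, n = 3) and a log2 fold change of −2.34 (SE 2.41, limma adjusted *P* = 0.484; exact two-sided permutation test, *P* = 0.743). *Lyz2* lies on chromosome 10 from 117111557 to 117118346 on the minus strand, opposite *Gm67237*.

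Promoter windows are shown for *C1qb* and *C1qc*, neighbors that were both without a read in dyW1 and both present in dyW2 and the library labelled dyW3, and for *Lyz2*, which had a single read in the library labelled dyW3, where both were at their highest. The windows hold the 250 bases before each annotated start in RefSeq, whose table uses GRCm38.p6 and not the build of the counts. Capitals mark the letters GAGGAA or, on the other strand, TTCCTC, which hold the core bound by PU.1, the myeloid transcription factor encoded by *Spi1*. The windows are chr4:136886201-136886450 for *C1qb*, chr4:136892915-136893164 for *C1qc* and chr10:117282273-117282522 for *Lyz2*, all on the minus strand and written 5′ to 3′.
*C1qb*: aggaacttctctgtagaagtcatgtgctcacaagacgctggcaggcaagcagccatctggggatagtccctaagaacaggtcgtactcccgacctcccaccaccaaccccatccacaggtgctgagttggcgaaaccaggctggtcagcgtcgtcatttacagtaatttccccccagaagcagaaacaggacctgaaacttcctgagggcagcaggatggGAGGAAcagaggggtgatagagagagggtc
*C1qc*: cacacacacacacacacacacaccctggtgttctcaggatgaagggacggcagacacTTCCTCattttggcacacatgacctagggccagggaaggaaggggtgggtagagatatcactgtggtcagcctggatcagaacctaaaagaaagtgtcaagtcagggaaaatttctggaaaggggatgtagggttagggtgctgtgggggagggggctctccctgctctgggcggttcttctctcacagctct
*Lyz2*: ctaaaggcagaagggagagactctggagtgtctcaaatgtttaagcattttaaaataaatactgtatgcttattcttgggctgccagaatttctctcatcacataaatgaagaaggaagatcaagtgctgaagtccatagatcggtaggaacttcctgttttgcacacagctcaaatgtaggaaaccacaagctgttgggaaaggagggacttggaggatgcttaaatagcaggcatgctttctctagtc
The *C1qb* window held GAGGAA from 30 bases before the start and the *C1qc* window held TTCCTC from 193 bases before it, whereas the *Lyz2* window held neither of these 6-letter runs. The 4-letter core GGAA is short and was not marked; the *Lyz2* window holds it too. Of the 10 genes, 6 were in the table, and 5 of the 6 had a match in at least 1 window, namely *Ptprc*, *Cd68*, *Mrc1*, *C1qb* and *C1qc*. Among all genes of the table, 25.9% had a match in at least 1 window. By window, 5 of the 7 windows of these genes held a match, beside 23.3% of all 32851, and a match of these letters is a description of the sequence only. *Spi1* had normalized counts of 0, 29.7, 6.15 and 12.6 in WT1 to WT4, and of 13.7, 2.15 and 8.79 in the libraries labelled dyW in order of number, a log2 fold change of 0.06 (SE 1.21, limma adjusted *P* = 0.975).

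The groups were compared with limma over all 25791 tested genes, and a gene is termed called when its adjusted *P* was below 0.01 and its log2 fold change beyond 1.5 in either direction. None of the 10 genes was called lower in dyW, where 18.7% of all tested genes were, and none was called higher, where 0.0659% were. With the limit on the adjusted *P* at 0.05 the count was again 0 of 10 in either direction, beside 29.6% of all genes lower and 1.0% higher. By unadjusted limma *P*-values under 0.05, 1 of the 10 genes passed, *Ptprc*, beside 11433 of all 25791, and voom on the recovered reads, chosen after seeing the data, called 0 of 10 with 0 passing 0.05 unadjusted. None of the 10 had every WT library above every library labelled dyW, a pattern found in 31.5% of all tested genes, and none had the reverse, found in 3.28%. The median log2 fold change of the 10 genes was −1.36, beside −1.99 for all tested genes, and 4 of the 10 values were above 0. The median of all genes depended on the scaling, at −1.24 after all libraries were brought to 1 common total and −0.15 under quantile normalization. That of the 10 genes was −0.70 and 0.75 in these scalings, which is 0.54 and 0.90 above the median of all genes, beside 0.63 as deposited. In other settings the order turned or the gap closed. With a filter at a mean of at least 50, which 3 of the 10 genes passed, their median was −2.34 beside 0.20 for all genes. With voom, the median of the 10 genes was −3.25, below the −2.68 of all genes, and 1 of the 10 values was above 0. *Mrc1*, *C1qa*, *C1qb*, *C1qc* and *Tyrobp* took either sign among the alternative settings, whereas *Ptprc*, *Csf1r*, *Adgre1* and *Lyz2* stayed negative and *Cd68* positive in each of them. The calls over all genes were not stable either, with 0 lower and 0 higher when WT2, WT4 or dyW2 was left out.

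The library labelled dyW3 decided these counts. Without it, 3 of the 10 genes were called lower by limma, *Ptprc* (log2 fold change of −6.48, adjusted *P* = 0.00236), *Adgre1* (−4.20, adjusted *P* = 0.00509) and *C1qa* (−3.53, adjusted *P* = 0.00677), and 0 were called higher. Since dyW1 and dyW2 held no read of *Ptprc* or *Adgre1*, the fold is a bound against a floor of 3 reads in each of these libraries, with the WT mean taken as exact. Against this floor, their mean was at least 272-fold lower than in WT for *Ptprc* and at least 61.2-fold lower for *Adgre1*. The WT levels of both genes were near those of receptor genes for odors and pheromones, as given further on, and the median of these receptor genes was 0 in dyW1 and dyW2; the part of this in the folds was not tested. For *C1qa*, with 1 read in these 2 libraries, the ratio to the WT mean was 0.00515 (95% exact Poisson interval of 0.000130 to 0.0287, for the read of dyW2 alone, with dyW1 taken as 0 and the WT mean as exact). Among all tested genes, 6717 were called lower without this library, and the median log2 fold change was −2.45, the same as that of the 10 genes.

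**Figure D2:**
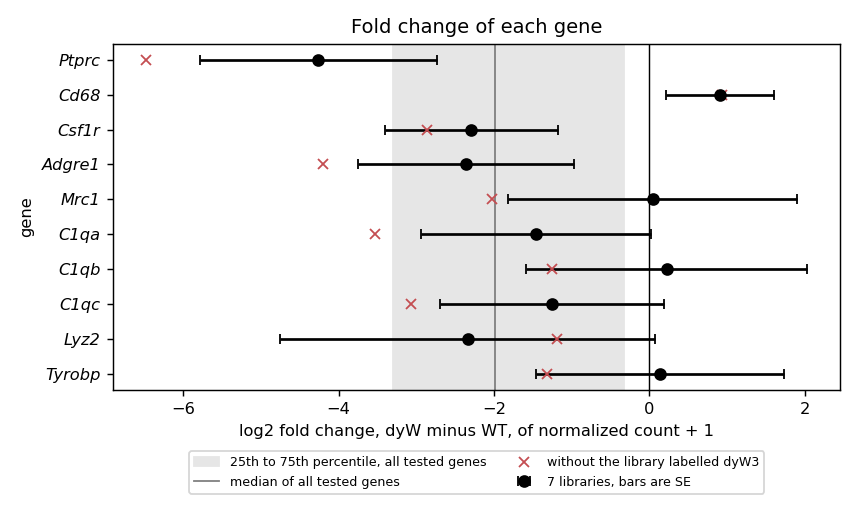
Log2 fold change (dyW minus WT, of normalized count + 1) of each of the 10 genes; points are the fit on 7 libraries with bars for the standard error, crosses the fit without the library labelled dyW3, and the gray band and line the quartiles and the median of all 25791 tested genes. *Cd68* (0.90), *C1qb* (0.22), *Tyrobp* (0.14) and *Mrc1* (0.04) lie above the gray band and *Ptprc* (−4.26) below it, and the crosses of *Ptprc*, *Adgre1*, *C1qa* and *C1qc* lie below −3.

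Summed over the 10 genes, the normalized counts were 159.9, 733, 511 and 299 in WT1 to WT4, and 108, 374 and 1169.6 in dyW1, dyW2 and the library labelled dyW3. The lowest and the highest sum were both in libraries labelled dyW, and the means of 426 ± 251 (SD, n = 4) and 551 ± 552 (SD, n = 3) differed by less than the spread within either group. *Lyz2* carried most of the sum in dyW2, and without it the sums were 159.9, 413, 328 and 267 in WT, and 108, 109 and 1169.1 in the libraries labelled dyW. As a share of the library, the 10 genes took 53.9 to 184 RPM (reads scaled to a common total) in WT, 77.5 in dyW1, 162 in dyW2 and 654 in the library labelled dyW3.

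Levels were compared between genes as RPKM, reads per kb of exon scaled by the reads on genes of the library. In WT the order of the means was led by *Lyz2* at 9.50 ± 11.2, *Tyrobp* at 7.77 ± 6.84 and *Cd68* at 3.72 ± 2.09 (SD, n = 4), and the other 7 genes lay between 0.880 (*C1qb*) and 2.19 (*C1qc*). Neighbors in this order differed by less than the larger of their 2 SDs. The steadiest of the 10 was *Ptprc*, at 1.18 ± 0.0440 RPKM. In the libraries labelled dyW the order was led by *Tyrobp* at 57.6 ± 60.2, *Cd68* at 14.6 ± 5.37 and *Mrc1* at 14.2 ± 22.0 (SD, n = 3), and *Ptprc* and *Csf1r* were last at 0.989 and 0.985. Apart from *Cd68*, each SD there was near to or above its mean.

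As a measure of reads on genes that are mostly used in sensory neurons, the median over 1269 odorant and vomeronasal receptor genes was taken in each library. It was 0.641 to 2.49 reads per kb in WT, where 1010 to 1248 of these genes had a read, and 1.09 in the library labelled dyW3, where 716 had one. In dyW1 and dyW2 the median was 0. Relative to it, 27 of the 40 values of the 10 genes in WT were below 2 times this level, and 10 of the 40 rested on 3 reads or fewer. *Ptprc*, *Csf1r*, *Adgre1* and *Mrc1* were below 2 times the receptor level in each of the 4 WT libraries, with *Ptprc* at 0.686 to 1.48 times. *Tyrobp*, at 2.29 to 10.6 times, was the only gene above 2 times in all 4, and *Lyz2* reached 15.2 times in WT3. In the library labelled dyW3, by contrast, *Tyrobp* was at 403 times, *Mrc1* at 133 times, *C1qa* at 89.9 times, *C1qc* at 75.2 times and *Cd68* at 44.8 times the receptor level of that library, *Ptprc* was at 9.96 times, and only *Lyz2*, at 0.275 times, was below 2. The part of these reads in the WT values of the 10 genes was not tested, and a WT level near that of the receptor genes is not read here as expression in macrophages. Apart from *Lama2* and the called genes among other macrophage genes, genes of the other lists were not set against this level. Its part in their lower values was not tested either.

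**Figure D3:**
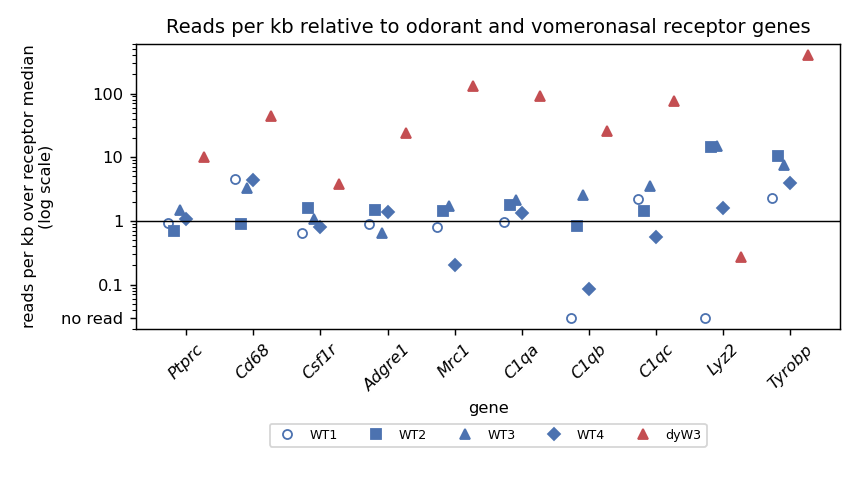
Reads per kb of each of the 10 genes divided by the median over 1269 receptor genes (odorant and vomeronasal) of the same library (log scale), for the 4 WT libraries and the library labelled dyW3; dyW1 and dyW2 are not drawn because their receptor median is 0. Most WT points lie near the line at 1, with *Ptprc* between 0.686 and 1.48, whereas 9 of the 10 points of the library labelled dyW3 lie between 3.73 (*Csf1r*) and 403 (*Tyrobp*).

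A list of 34 other macrophage genes, 32 of them tested, had 5 called lower and 0 higher, which is 15.6% beside 18.7% of all genes, and a median log2 fold change of −1.42. The 5, named after their values were seen, were *Cx3cr1*, the receptor of fractalkine, *Fcgr2b*, the inhibitory Fc receptor, *Ms4a7*, *Clec4n*, which encodes the lectin Dectin-2, and *Cd84*. None of the 3 libraries held a read of *Cx3cr1*, which had 5.33 to 37.8 normalized counts in WT (limma adjusted *P* = 0.00484), a mean at least 29.3-fold lower against the floor of 3 reads in each library, with the WT mean taken as exact. Per kb, its WT values were 0.335 to 1.46 times the receptor level, and those of *Fcgr2b*, *Ms4a7*, *Clec4n* and *Cd84* lay between 0.350 and 2.65 times, beside a receptor level of 0 in dyW1 and dyW2; its part in these calls was not tested. Of the list, 0 were called when WT2, WT4, dyW1 or dyW2 was left out, beside 0, 0, 1817 and 0 lower among all 25791 genes, and 9 without the library labelled dyW3, beside 6717 of all genes. The most abundant genes of the list also differed among the libraries labelled dyW. *Apoe*, which encodes a lipid carrier, had 11.3, 175 and 373 normalized counts in them and 16.0 to 523 in WT. *F13a1*, which encodes the A subunit of coagulation factor XIII, had 603.5 normalized counts in dyW1 and 59.8 to 138 in the other 6 libraries, and *Lgmn*, which encodes a lysosomal protease, had 310.3 in dyW1 and 15.7 to 119 elsewhere. *Pf4*, a chemokine gene of platelets and fetal macrophages, had 0, 60.3 and 602 in the libraries labelled dyW and 0 to 59.5 in WT. In the list as a whole, 26 to 34 of 34 genes had a read in a WT library, and 14, 21 and 29 had one in dyW1, dyW2 and the library labelled dyW3.

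The 10 transcription factor genes of macrophages and blood cells had a median log2 fold change of 0.01. Neither limma nor voom called any (0 of 10 by each), and 4 passed 0.05 by unadjusted limma *P*-values, beside 11433 of all 25791 genes. At an adjusted *P*-value under 0.05, where 29.6% of all genes were lower and 1.0% higher, 1 of the 10 was higher and 1 lower. *Maf* was higher (log2 fold change of 2.42, SE 0.723, limma adjusted *P* = 0.0322), with 26.7 to 56.6 normalized counts in WT and 434, 83.7 and 372 in the libraries labelled dyW. *Maf* encodes a factor that is active in resident macrophages and in other cells, and all 3 libraries labelled dyW lay above every WT library, as in 3.28% of all tested genes. *Ikzf1*, the gene of the lymphoid and myeloid factor Ikaros, was lower at this threshold (log2 fold change of −4.21, limma adjusted *P* = 0.0250), with 0, 0 and 16.6 normalized counts in the libraries labelled dyW.

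Complement genes other than those of C1q gave 0 called by limma among 16 tested, against 3 by voom and 5 by unadjusted *P*-values under 0.05, and 3 were lower at an adjusted *P*-value under 0.05 (18.8%, beside 29.6% of all genes). Limma called 18.7% of all 25791 genes lower, voom called 6079 lower, and 11433 passed 0.05 unadjusted. The 3 complement genes were *C3* (log2 fold change of −4.02, limma adjusted *P* = 0.0103) and *C4b* (−4.51, 0.0119), the components that act after C1q, and *C3ar1* (−3.82, 0.0189), the receptor of C3a.

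For antigen presentation, a further task of macrophages, 7 genes were tested, of which 2 were called lower (28.6%, beside 18.7% of all genes) and 0 higher, and 4 were lower at an adjusted *P*-value under 0.05 (57.1%, beside 29.6%). The 2 called were the class II genes *H2-Aa*, with 10.8 to 26.7 normalized counts in WT and 0, 1.52 and 0 in the libraries labelled dyW (limma adjusted *P* = 0.00561), and *H2-Eb1*, with 12.3 to 34.6 in WT and 2 reads in all in the libraries labelled dyW (limma adjusted *P* = 0.00372). Each WT value rests on only 4 to 8 reads for *H2-Aa* and 3 to 11 for *H2-Eb1*. These levels were not set against that of the receptor genes, whose median was 0 in dyW1 and dyW2. *Ciita*, which encodes the activator of the class II genes, had 26.7 to 83.6 normalized counts in WT, and 8.87, 0.126 and 14.7 in the libraries labelled dyW (log2 fold change of −3.27, limma adjusted *P* = 0.0369). *H2-Ab1*, which encodes a class II chain, had its highest value in dyW2, at 62.0 normalized counts, beside 0 in dyW1, 2.44 in the library labelled dyW3 and 5.33 to 29.7 in WT. *Cd74*, of the same list, had 2.05 to 22.0 normalized counts in WT, and 8.09, 24.9 and 1.95 in the libraries labelled dyW. Its log2 fold change was −0.47 (limma adjusted *P* = 0.756).

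Genes of other blood cells were compared in the same way. Of 16 tested pan-leukocyte genes, 3 were called lower and 0 higher (18.8%, beside 18.7% of all genes), of 9 T and NK cell genes 2 were lower (22.2%), of 7 neutrophil genes 3 were lower (42.9%), and of 7 B cell genes 0 were called by limma in either direction, against 1 by voom and 6 by unadjusted *P*-values under 0.05. Among all 25791 genes, voom called 6079 lower and 11433 passed 0.05 unadjusted. The summed normalized counts of T and NK cell genes were 3.70, 57.3 and 205 in dyW1, dyW2 and the library labelled dyW3, beside 77.9 to 293 in WT. Those of B cell genes were 30.5, 0.253 and 86.4, beside 94.4 to 251 in WT, and those of neutrophil genes were 10.6, 8.98 and 50.3, beside 55.4 to 169.9 in WT. For pan-leukocyte genes they were 194, 355 and 254, beside 312 to 671 in WT. The sums of dyW2 for pan-leukocyte genes and of the library labelled dyW3 for T and NK cell genes thus lay within the WT range, and the others lay below it.

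Markers of other cell types were also high or low in single libraries, and their part in the values above was not tested. In dyW1, where *Tyrobp*, *Cd68* and *Csf1r* were present without *Ptprc*, the summed count of 8 osteoclast genes was 864 normalized counts, against 155 to 441 in the other 6 libraries, and 7 of the 8 had a read. Osteoclasts, the bone-resorbing cells, arise from the same precursors as macrophages. *Mmp9* had 145 normalized counts in dyW1, *Atp6v0d2* had 130 and *Ctsk* had 463, and the first 2 had no read in dyW2 or in the library labelled dyW3. *Acp5* was also highest in dyW1, at 80.5. The remaining genes of the list were lower or near their WT levels there: *Tnfrsf11a*, which encodes the receptor RANK, had 4.38 normalized counts in dyW1 and 21.6 to 53.3 in WT, *Ocstamp* had no read, *Dcstamp* had 18.6 beside 5.33 to 22.0 in WT, and *Calcr* had 21.9, its highest value, beside 0 to 18.9. In dyW2, where *Lyz2* was high, the mast cell protease genes *Cma1* and *Cpa3* had 590.0 and 442 normalized counts, and the summed count of the mast cell list was 1111 against 41.1 to 825 in the other libraries. The sum came almost wholly from these 2 genes, since *Hdc* had 0.632 normalized counts in dyW2, below its WT range of 58.6 to 71.8, and *Tpsb2* (27.2), *Mcpt4* (4.05) and *Kit* (46.9) were within theirs. Erythroid genes had summed normalized counts of 90.6 in WT1 and 14.8 in dyW1, and of 28845 to 291249 in the other 5 libraries. WT1 and dyW1 were also the 2 libraries with no read of *C1qb* or *Lyz2*. Fibroblast genes had sums of 4329 to 14991 in WT and 22084 to 33416 in the libraries labelled dyW. In dyW1 the sum came mostly from *Col1a1* (8467) and *Col1a2* (12046). There, *Col3a1* (232, beside 581 to 4129 in WT) and *Fbn1* (132, beside 148 to 244) were below WT. *Dcn*, *Lum* and *Postn* were within their WT ranges in dyW1, and *Pdgfra* was above (280, beside 39.0 to 123).

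**Figure D4:**
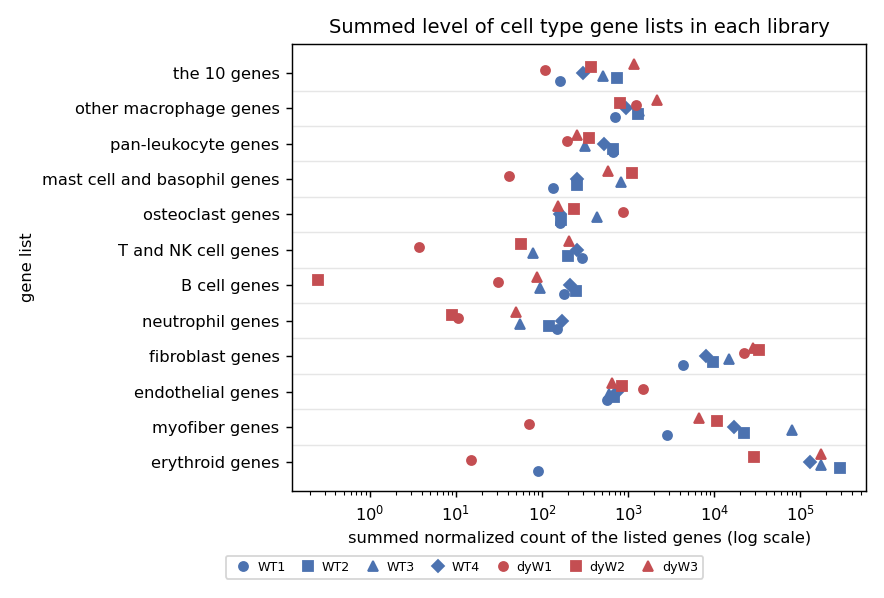
Summed normalized count (log scale) of the 10 genes and of 11 lists of genes of other macrophages and other cell types, 1 point per library, blue for WT and red for the libraries labelled dyW, with the shape giving the library number. The 10 genes range from 108 (dyW1) to 1169.6 (the library labelled dyW3), osteoclast genes are highest in dyW1, mast cell genes in dyW2, and myofiber and erythroid genes are lowest in dyW1.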

How the data were processed

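SMART-seq2 cDNA of lysed fibers was made into libraries by Nextera XT tagmentation. Per the labels and the methods of the study, the authors used Cutadapt for trimming, RNA STAR for alignment to GRCm39, FeatureCounts for uniquely mapped reads per gene, and DESeq2. They deposited normalized counts (written with decimal commas), which are counts divided by 1 size factor per library, and a table of fold changes and *P*-values from their own comparison, which was not used. Tool versions, the annotation release and the strand setting are not given in the sources used here.

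Groups follow the genotype in the sample titles. Division of each value by the step of its library gave whole reads (tolerance of 0.01) for 99.997% to 100% of values, and the resulting depth of 470804 to 18297106 reads sets the precision of each library. Of the gene identifiers, 99.2% matched GENCODE vM39, which gave positions and exon lengths. Genes with a mean of at least 5 were fitted with limma 3.58.1 in R 4.3.3 (lmFit, then eBayes with trend, no covariate) on log2(normalized count + 1), a scale that understates the change of a low gene, with Benjamini-Hochberg adjustment over all 25791. Single genes were also tested by exact permutation. The fit was tested on simulated data. Python 3.11.15 served for all other steps, with numpy 2.4.6 for arrays, pandas 2.3.3 for tables, scipy 1.17.1 for exact tests and matplotlib 3.10.9 for plots.

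The 10 genes, the other lists and the tests were chosen with earlier results of these data known. Named are the 10 genes, *Lama2*, examples from the lists of ligands, transcription factors, DAP12 partners and complement, and the 5 genes with the most similar pattern. From other lists, some of the most abundant members are named. Further genes of these lists are named because they were called or stood out in a library, after their values were seen. Alternatives changed the pseudocount (0.1 or 10), the filter (none, or a mean of 50 or more), the scaling (equal totals or quantile normalization), the limit on the adjusted *P*-value (0.05), the libraries (each removed once) or added a replicate block. Voom on recovered reads and the removal of both WT1 and dyW1, which nearly lacked globin reads, were chosen after seeing the data. The planned edgeR and DESeq2 fits on recovered reads were not run, and voom on the same reads took their place. The reason was formal: the unit check read the values with decimal commas as text, although whole reads were recovered.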

Additional observations from a re-analysis of the deposited data

How the results depend on the processing

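None of the 10 genes was called under any setting except without the library labelled dyW3, so that leaving out 1 library gave 0 to 3 called genes. Of the other macrophage genes, 5 were called in the fit reported, 3 with voom, and 0 with a pseudocount of 10, a mean of at least 50 (6 genes tested), scaling to the same total, quantile normalization, the replicate block, or without WT1 and dyW1; leaving out 1 library gave 0 to 9. Counts over all genes moved as far: 4830 lower and 17 higher as reported, 0 and 0 with a pseudocount of 10, the same total, a mean of at least 50, without WT1 and dyW1, or without WT2, WT4 or dyW2, 3 and 0 after quantile normalization, 1817 and 3 without dyW1, 6717 and 23 without the library labelled dyW3, 6079 and 5 with voom, and 5169 and 41 with a pseudocount of 0.1. The causes were not tested, except that voom and the smaller sets change the test itself. The labels give WT and dyW the same replicate numbers, but nothing pairs the samples: deviations of same-numbered libraries correlated at 0.147, −0.049 and −0.088, and not every library correlated best with its own number. With the replicate block, which drops WT4 from the comparison, 0 of the 10 genes and 1 of all genes were called. The log2 difference of the summed level was −0.01, from −0.86 to 0.85 when 1 library was left out, 1.14 at the same total, 0.05 after quantile normalization and 0.46 without WT1 and dyW1, all within the SD of 1.31 between libraries. Depth limits the WT values, of which 10 of 40 rested on 3 reads or fewer.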

Other observations

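Genes outside the lists whose log2(normalized count + 1) over the 7 libraries was most like the mean scaled level of the 10 genes, among 6015 genes with a mean of at least 50, were *4932412D23Rik* (Pearson's r of 0.97), *Gm8251* (0.97), *A830018L16Rik* (0.97), *Sorbs3* (0.97) and *Olfr1318* (0.97). This is a description over libraries that differ in depth. The pattern they share is a high value in the library labelled dyW3, middle values in WT and low values in dyW1 and dyW2. *Olfr1318*, an odorant receptor gene, had normalized counts of 16.0, 64.7, 36.9 and 34.6 in WT1 to WT4, and of 0.390, 0 and 201.7 in dyW1, dyW2 and the library labelled dyW3. *Sorbs3*, which encodes the adhesion protein vinexin, had 37.3 to 78.2 in WT, and 26.5, 28.8 and 94.7 in the libraries labelled dyW.

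The summed normalized count of 17 cytokine and chemokine genes was 1038 in the library labelled dyW3 and 196 to 429 in the other 6 libraries. *Ccl4*, which encodes a chemokine that attracts monocytes and T cells, had 453 normalized counts there, 0 in dyW1 and dyW2, and 0 to 12.3 in WT. *Cxcl2*, which encodes a chemokine that attracts neutrophils, had 191 there, 0 in dyW1 and dyW2, and 0 to 6.29 in WT. *Il1b* had 78.6, *Ccl3* had 58.1 and *Tnf* had 37.1 in that library, and at most 10.7, 10.8 and 15.8 in any other. Except for *Ccl4*, these were named after their values were seen. Of 16 tested genes of the list, 0 were called in either direction by limma, 1 (*Il6*) was lower at an adjusted *P*-value under 0.05, 3 had an unadjusted *P*-value under 0.05, and voom called 1. Among all 25791 tested genes, limma called 18.7% lower, 29.6% were lower at the looser limit, 11433 passed 0.05 unadjusted, and voom called 6079 lower. *Ccl9* was high elsewhere, at 144.5 normalized counts in dyW1, 10.7 to 53.9 in WT and at most 0.488 in the other libraries labelled dyW.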
